A study of Homo sapiens with 6 samples.

Results

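The 78 mitochondrial ribosomal protein genes were followed between the tumor core (TC) and the tumor margin (TM) of human breast cancer xenografts. They were taken from the table of all genes by name alone, as every protein-coding gene whose symbol is MRPL or MRPS followed by a number, with pseudogenes left out. The rule gave 78 of 60671 annotated genes, of which 49 carried an MRPL symbol (large ribosomal subunit) and 29 an MRPS symbol (small subunit). Each of the 78 reached at least 1 TPM, which is RNA abundance per transcript length, with a total of 1000000 over the genes of a sample, in all 6 samples, and so all 78 entered the test.

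The tumors were grown from the human breast cancer line MDA-MB-231, which is triple-negative and was labelled wild type, after orthotopic injection, that is into a mammary fat pad. Core and margin were separated and RNA was sequenced from 3 samples of each (3 mice per group by the study's description). The hosts were female NSG mice, which lack T, B and NK cells, aged 6 to 8 weeks at purchase, and no treatment other than the injection was given to either group. Neither the labels nor the methods say that a core and a margin came from one mouse or describe a step that separates mouse from human reads, and the reads behind each value (the depth) are unknown because TPM does not keep them. In bulk tissue, fewer cells of a type and less RNA per cell cannot be told apart.

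Mitochondria hold ribosomes of their own, which make the few proteins encoded by mitochondrial DNA, all of them core subunits of the respiratory chain and of ATP synthase. The RNAs of these ribosomes (MT-RNR1 and MT-RNR2) are transcribed inside the organelle, whereas every protein of both subunits is encoded in the nucleus, made in the cytosol and imported. Many of the proteins descend from bacterial ribosomal proteins and others were added in the mitochondrial lineage. Losses of single members cause inherited defects of oxidative phosphorylation.

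Not one of the 78 genes passed the test between core and margin. Under limma with Benjamini-Hochberg adjustment over 13861 tested genes, 0 members had an adjusted p under 0.05, beside 19 genes (0.137%) among all tested, and the smallest adjusted p among the members was 0.213. At an unadjusted p under 0.05, 3 members were higher in TC (MRPS36, MRPS28 and MRPL54), where 1.93% of all tested genes were, and 1 was lower (MRPS2), where 14.2% were. The 3 TC values and the 3 TM values did not overlap in 6 members (22.2% of all tested genes), 4 of them higher in TC (3.28%) and 2 lower (18.9%). The differences below are therefore given as values, and none of them is a called change.

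The middle of the set did not lie with the middle of the transcriptome. On the log2(TPM + 1) scale, TC minus TM was above 0 in 51 of 78 members, against 33% of all tested genes, and the median difference was 0.09 for the members and -0.14 for all tested genes, 0.23 apart. Of the members, 64 lay above the median of all tested genes. The median was 0.08 for the 49 MRPL genes and 0.09 for the 29 MRPS genes. These medians are descriptions, since genes of one set share samples and are not replicates, and the median of all tested genes itself moved to 0.02 when samples were rescaled by median-of-ratios factors.

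**Figure D1:**
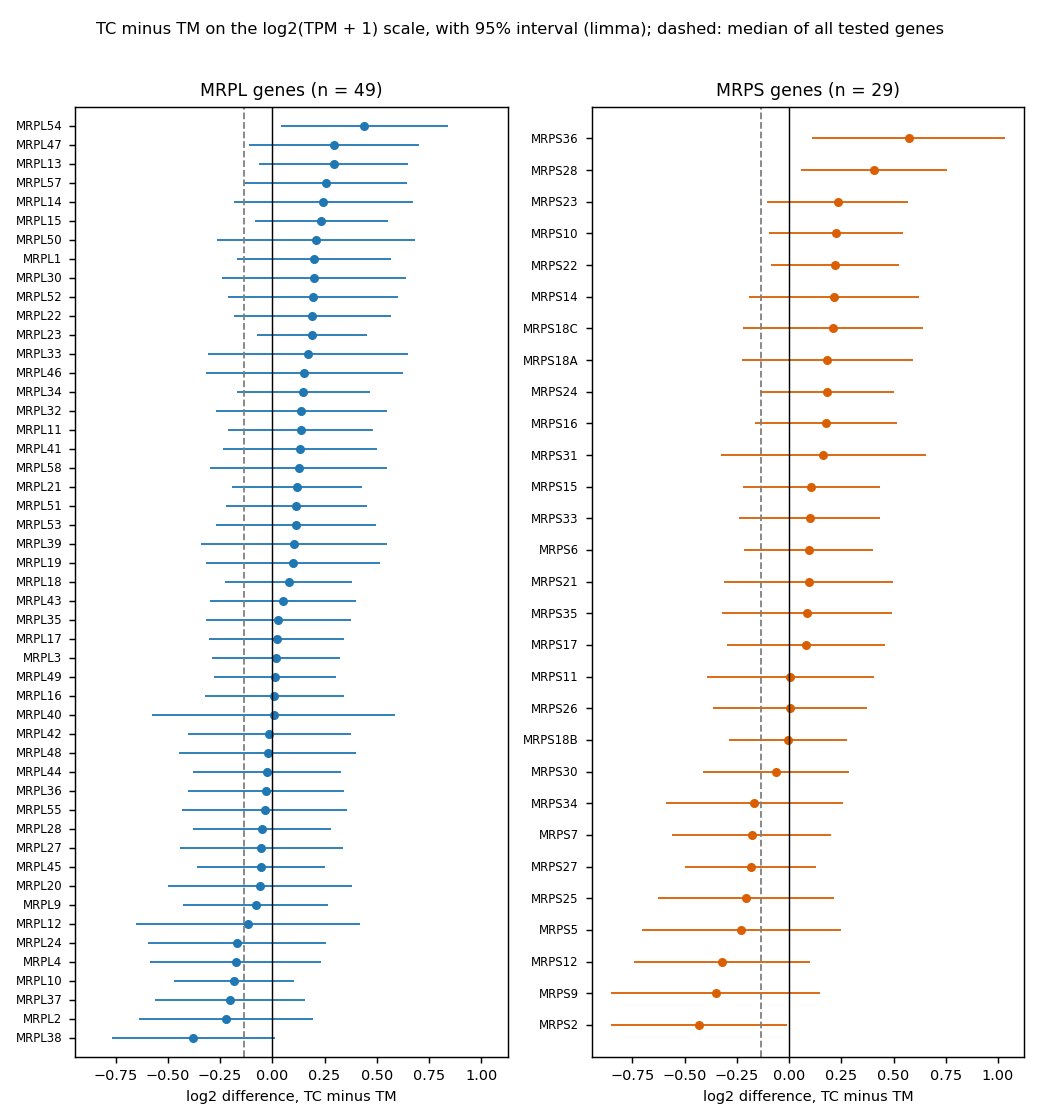
Each point is 1 gene's TC minus TM difference (x axis, log2(TPM + 1) scale) with its 95% interval from limma, MRPL genes on the left and MRPS genes on the right, and the dashed line marks the median of all tested genes at -0.14. Intervals of 4 genes leave 0 to one side (MRPS36, MRPS28 and MRPL54 above, MRPS2 below).

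The member with the smallest p was MRPS36 (ENSG00000134056, chr5:69217760-69230129, + strand in GENCODE v29 on GRCh38). It held 28.1, 20.4 and 29.9 TPM in TC replicates 1 to 3 and 19.5, 14.4 and 17.5 TPM in TM replicates 1 to 3. Each core value was above each margin value, with means of 26.1 ± 5.04 TPM and 17.1 ± 2.58 TPM (SD, n = 3). The difference was 0.57 (SE 0.20, 95% interval 0.11 to 1.03, limma adjusted p = 0.213). Although first described in the small subunit, the MRPS36 protein (also KGD4) is now known as a component of the 2-oxoglutarate dehydrogenase complex of the tricarboxylic acid cycle and is absent from structures of the human mitochondrial ribosome.

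MRPS28, a small-subunit protein (ENSG00000147586, chr8:79918717-80030289, - strand), held 46.4, 36.8 and 49.3 TPM in TC and 32.3, 33.8 and 32.4 TPM in TM. The margin samples lay close together and below every core sample, with means of 44.1 ± 6.49 TPM and 32.8 ± 0.807 TPM (SD, n = 3). The difference was 0.41 (SE 0.15, limma adjusted p = 0.245). MRPS28, MRPL13 and MRPL15 were the only 3 members on chromosome 8, a grouping made after the values were seen. MRPL13 held 49.8, 40.4 and 48.5 TPM in TC and 39.5, 32.5 and 40.7 TPM in TM (0.29, SE 0.15, limma adjusted p = 0.413). MRPL15, which binds the large ribosomal RNA, held 174, 132 and 164 TPM in TC and 125, 131 and 140.2 TPM in TM (0.24, SE 0.14). In both of these genes the zones overlapped in range, and the median over the 464 tested genes of that chromosome was -0.09.

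MRPL54 (ENSG00000183617, chr19:3762664-3768575, + strand), a large-subunit protein near the stalk that recruits translation factors, held 111, 133 and 157 TPM in TC and 106, 108 and 80.7 TPM in TM. All core samples exceeded all margin samples, with TC replicate 1 and TM replicate 2 close to each other. The difference was 0.44 (SE 0.17, limma adjusted p = 0.265). The other 4 genes of the stalk and its base lay on both sides of 0. MRPL10, which anchors the stalk, held 39.6, 42.9 and 42.3 TPM in TC and 48.8, 46.3 and 46.99 TPM in TM, and here each core value was below each margin value (-0.18, SE 0.13, limma adjusted p = 0.538). Its difference was -0.0085 under median-of-ratios rescaling and 0.080 once a trend over length and GC content was removed. MRPL12, the stalk protein itself, which also binds the mitochondrial RNA polymerase, held 129, 149.6 and 196 TPM in TC and 204, 195 and 120.4 TPM in TM. Its values spread more inside each zone than between the zones (-0.12, SE 0.23). MRPL11, at the base of the stalk, held 75.7, 93.7 and 85.8 TPM in TC and 77.7, 88.4 and 66.5 TPM in TM (0.14, SE 0.15). MRPL53 held 128, 154 and 169 TPM in TC and 131, 119 and 167 TPM in TM (0.11, SE 0.17), and both overlapped between the zones.

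MRPS2 (ENSG00000122140, chr9:135499984-135504673, + strand) was the member furthest below 0. This small-subunit protein of bacterial descent held 77.03, 91.2 and 107 TPM in TC and 141, 135 and 97.7 TPM in TM. The zones overlapped, since TM replicate 3 was below TC replicate 3, with means of 91.7 ± 14.8 TPM and 124 ± 23.3 TPM (SD, n = 3). The difference was -0.43 (SE 0.18, 95% interval -0.85 to -0.01, limma adjusted p = 0.299). MRPL38, a large-subunit protein without a bacterial counterpart (ENSG00000204316, chr17:75898643-75905413, - strand), held 62.6, 74.4 and 86.4 TPM in TC and 107, 104 and 80.5 TPM in TM (-0.38, SE 0.17, limma adjusted p = 0.325). MRPS12, the counterpart of the bacterial protein at the decoding centre, held 54.3, 68.9 and 84.2 TPM in TC and 98.4, 81.4 and 77.1 TPM in TM (-0.32, SE 0.18, limma adjusted p = 0.456). In these 3 genes TC replicate 1 was the lowest of the 6 samples and TC replicate 3 the highest core sample.

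**Figure D2:**
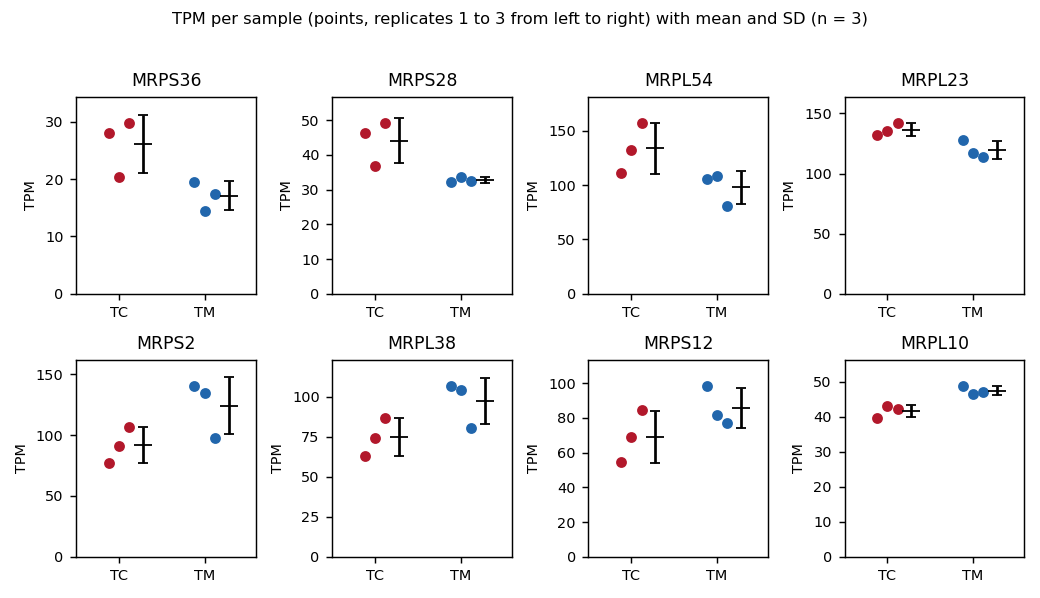
TPM (y axis, from 0) of 8 members in each TC and TM sample, with points for replicates 1 to 3 from left to right in each zone and a bar for the mean with its SD (n = 3). The zones do not overlap in MRPS36, MRPS28, MRPL54, MRPL23 and MRPL10 and overlap in MRPS2, MRPL38 and MRPS12.

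The remaining members without overlap were MRPL23 and MRPS27. MRPL23, near the exit of the peptide tunnel, held 132, 135 and 142 TPM in TC and 128, 117 and 114 TPM in TM (0.19, SE 0.11, limma adjusted p = 0.479). MRPS27, an RNA-binding pentatricopeptide repeat protein of the small subunit, held 37.9, 35.02 and 31.8 TPM in TC and 40.9, 37.99 and 40.2 TPM in TM (-0.18, SE 0.14, limma adjusted p = 0.581). Overlap was slight in the members with the next-smallest p. In MRPL47, of the bacterial L29 family, 1 margin sample lay inside the core range, with 55.6, 50.1 and 61.9 TPM in TC and 48.1, 53.3 and 35.9 TPM in TM (0.30, SE 0.18). MRPS22, a small-subunit protein whose loss causes mitochondrial disease, held 54.4, 50.8 and 58.1 TPM in TC and 50.9, 43.2 and 45.8 TPM in TM (0.22, SE 0.13). MRPS10, of the bacterial S10 family, held 61.5, 52.9 and 49.2 TPM in TC and 49.3, 45.1 and 44.6 TPM in TM (0.23, SE 0.14). In both of these a single margin sample reached into the core range. Across all 78, differences ran from -0.43 to 0.57, the middle part of the members (lower to upper quartile) lay between -0.05 and 0.18, and the median standard error was 0.17.

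Grouped by place or by descent, the members had medians close to each other. The 51 genes whose products sit in the large subunit (49 MRPL genes with MRPS30 and MRPS18A, which are large-subunit proteins in spite of their symbols) had a median difference of 0.08, with 33 above 0. The 26 genes of the small subunit had a median of 0.09, with 17 above 0. The 48 genes of a bacterial ribosomal protein family had a median of 0.09 (31 above 0), and so had the 29 genes outside those families (19 above 0). The 3 paralogs of bacterial S18, which sit at different places in the ribosome, all overlapped between the zones. MRPS18A held 43.2, 56.9 and 59.1 TPM in TC and 51.04, 50.2 and 38.4 TPM in TM (0.18, SE 0.18). MRPS18B held 58.4, 65.1 and 63.9 TPM in TC and 65.8, 60.5 and 61.5 TPM in TM (-0.00, SE 0.12). MRPS18C held 29.9, 25.7 and 40.2 TPM in TC and 29.1, 26.1 and 25.8 TPM in TM (0.21, SE 0.19). MRPS30, the other large-subunit protein with a small-subunit symbol, held 35.7, 29.1 and 27.6 TPM in TC and 31.2, 33.2 and 31.6 TPM in TM (-0.06, SE 0.15). Of 12 members with known inherited disease variants in patients, 6 lay above 0 and 6 below.

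The levels themselves were far apart from gene to gene. By mean TPM over the 6 samples, MRPS24 led at 338, followed by MRPL52 at 284, MRPL33 at 204, MRPL41 at 192, MRPL51 at 182 and MRPL12 at 166, and MRPS34 stood at 122. MRPL50 was the lowest at 5.85, after MRPS14 at 11.3, MRPS31 at 11.7, MRPS21 at 16.3, MRPL30 at 16.6 and MRPL1 at 19.6. The median member stood at 60.9 TPM and the median tested gene at 12.1 TPM. The highest and the lowest member were 57.7 times apart in mean TPM, a scale corrected for transcript length. In 76 of 77 neighbouring pairs of this order the ranges over the 6 samples overlapped, as in MRPS14 (11.03, 12.6 and 13.1 TPM in TC, 11.2, 10.2 and 9.76 TPM in TM) and MRPS31 (14.8, 11.5 and 10.9 TPM in TC, 13.6, 9.75 and 9.63 TPM in TM). MRPS24, the counterpart of bacterial S3, was the highest member in every sample, with 321, 353 and 403 TPM in TC and 338, 336 and 275 TPM in TM (0.18, SE 0.14).

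The other members named at the ends of this order had zones that overlapped. MRPL52 held 259, 320.0 and 325 TPM in TC and 326, 261 and 212 TPM in TM (0.19, SE 0.18). MRPL33 held 165, 196 and 298 TPM in TC and 204, 177 and 186 TPM in TM, with 1 core sample far above the other 5 (0.17, SE 0.21). MRPL41 held 179.9, 195 and 228 TPM in TC and 192, 211 and 149.6 TPM in TM (0.13, SE 0.16). In these 3 of the most abundant members the zones overlapped. MRPS34, which small-subunit stability depends on, was lower in the mean of the core, with 92.7, 118 and 133 TPM in TC and 143, 140.3 and 102 TPM in TM (-0.17, SE 0.19). At the low end, MRPL50 held 6.79, 6.49 and 5.74 TPM in TC and 5.86, 4.56 and 5.67 TPM in TM (0.21, SE 0.21), with 1 margin sample below all others. MRPL30 held 21.2, 17.97 and 14.6 TPM in TC and 16.9, 15.5 and 13.7 TPM in TM (0.20, SE 0.19). MRPL1, beside the exit site for tRNA, held 22.1, 19.5 and 21.3 TPM in TC and 18.4, 16.1 and 20.03 TPM in TM (0.20, SE 0.16). MRPS21 held 15.1, 15.99 and 19.7 TPM in TC and 17.3, 15.5 and 14.4 TPM in TM (0.09, SE 0.18). Each of these also overlapped between the zones. The differences of MRPS14 and MRPS31 were 0.22 (SE 0.18) and 0.16 (SE 0.21).

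Summed over the members, the zones overlapped. The sum was 5446, 5820.3 and 6542 TPM in TC and 6177, 5805 and 5180.4 TPM in TM, averaging 5936 ± 557 in the core and 5721 ± 504 in the margin (SD, n = 3). It made up between 0.521% and 0.654% of all TPM in a sample. The ratio of summed MRPL to summed MRPS TPM stayed between 2.24 and 2.40 in the 6 samples. The samples of one zone were not alike. Of the members, 32 of 78 had their highest value in TC replicate 3 and 21 in TM replicate 1, whereas 35 had their lowest value in TM replicate 3 and 16 in TC replicate 1.

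In some pairs of replicates the difference went with base composition. Across the 78 members, the difference between TC replicates 2 and 1 correlated with the GC content of the transcripts (Pearson's r = 0.64, Spearman's rho = 0.68), and so did the difference between TC replicates 3 and 1 (r = 0.57, rho = 0.64) and between TM replicates 2 and 3 (r = 0.50, rho = 0.51), but hardly that between TC replicates 3 and 2 (r = 0.087, rho = 0.082). Over 13772 tested genes with a GC value the 4 pairs gave r = 0.26, 0.27, -0.072 and 0.049 in the same order. The sign for TM replicates 2 and 3 was thus opposite. It was also opposite for TM replicates 1 and 3 (r = 0.29 in the members, -0.20 over those genes). For TM replicates 2 and 1 the values were r = 0.40 and 0.15. The difference between the zones ran the other way (r = -0.34, rho = -0.35), and over those 13772 genes it also did (r = -0.22, rho = -0.29). These are correlations across genes of the same libraries, given as descriptions. In the 39 members at or below the members' median GC content of 50.5%, the median difference was 0.12 with 30 above 0, and in the 39 above it 0.01 with 21 above 0. All tested genes split at the same GC content had medians of -0.06 and -0.23. The summed TPM of the low-GC members was 2068, 1922 and 2218 TPM in TC and 2034, 1807 and 1848 TPM in TM, and that of the high-GC members 3378, 3898 and 4325 TPM in TC and 4143, 3999 and 3332 TPM in TM. MRPS36, at 39.4% GC, and MRPS2, at 61.04%, lay on the sides of 0 that this order gives, and MRPL54, at 63.1%, on the other side. The split was made after the values were seen. Removing each sample's trend over length and GC content also centred each sample on the genes' mean values. The median was then 0.20 for the members and 0.02 for all tested genes, 0.18 apart, beside 0.23 as deposited. Median-of-ratios rescaling, which uses no GC content, gave 0.26 and 0.02.

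**Figure D3:**
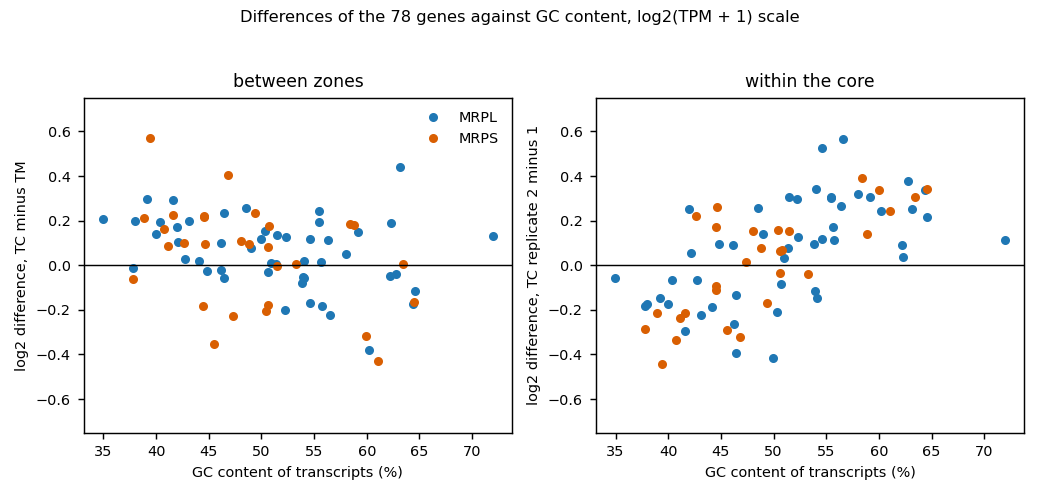
Each point is 1 of the 78 members, placed by the GC content of its transcripts (x axis, %) and by its log2(TPM + 1) difference (y axis), between TC and TM on the left and between TC replicates 2 and 1 on the right. The cloud slopes down between the zones (r = -0.34) and more steeply up inside the core (r = 0.64).

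Genes of 6 other lists, from ribosome partners to mitochondrial DNA maintenance and regulators, had a lower median difference than the members. Of 80 tested genes on these lists, 0 passed the adjusted test by limma (smallest adjusted p = 0.0843). By limma 13 had an unadjusted p under 0.05, all of them lower in TC (background 14.2%), and 17 did not overlap, all lower (background 18.9%). Mitochondrial DNA and RNA enzymes gave 3 of these 13 and 5 of these 17, and regulators of biogenesis gave 3 and 3. Over the 80 genes the median difference was -0.15, close to the -0.14 of all tested genes. Of the 80, 64 lay below 0, beside 9283 of 13861 tested genes, and 38 lay above the median of all tested genes. The list of ribosomal subunits without an MRP number, which also holds OXA1L, not itself a subunit, had 6 genes and a median of -0.15. Among them PTCD3, a small-subunit protein, held 44.7, 25.5 and 32.4 TPM in TC and 79.1, 46.5 and 50.5 TPM in TM (-0.76, SE 0.26, limma adjusted p = 0.203). OXA1L, which inserts new proteins into the inner membrane beside the ribosome, held 124, 114 and 106 TPM in TC and 143, 141 and 156 TPM in TM (-0.35, SE 0.12), and both genes were lower in every core sample. DAP3, CHCHD1, AURKAIP1 and GADD45GIP1, the other 4, had overlapping zones and differences of -0.13, 0.22, -0.0041 and -0.16.

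Of the 30 assembly factors, 27 lay below 0 (median -0.18), as did 9283 of 13861 tested genes, and 14 lay above the median of all tested genes. METTL17, which acts on the small subunit during assembly, held 58.1, 48.4 and 59.8 TPM in TC and 83.6, 99.7 and 92.4 TPM in TM (-0.72, SE 0.14, limma adjusted p = 0.0843). SPG7, a subunit of the inner-membrane protease that matures the ribosomal protein MRPL32, held 30.4, 30.8 and 28.7 TPM in TC and 53.04, 51.8 and 84.9 TPM in TM (-1.02, SE 0.20, limma adjusted p = 0.0843). MRPL32 itself differed by 0.14 (SE 0.18), with 87.5, 77.5 and 97.2 TPM in TC and 86.4, 61.8 and 92.2 TPM in TM. The helicase DHX30 and the GTPase ERAL1, which chaperones the small ribosomal RNA, differed by -0.48 (SE 0.12) and -0.40 (SE 0.14), without overlap between the zones, and so did MTERF4 by -0.44 (SE 0.17).

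The 17 genes of mitochondrial DNA maintenance, transcription and RNA processing had a median of -0.21. POLG, the catalytic subunit of the mitochondrial DNA polymerase, held 26.99, 24.1 and 26.95 TPM in TC and 44.9, 42.4 and 40.6 TPM in TM (-0.69, SE 0.14, limma adjusted p = 0.0843). Its accessory subunit POLG2 differed by -0.64 (SE 0.22) and ELAC2, the tRNA 3′ processing enzyme, by -0.53 (SE 0.15). TFAM, which packs mitochondrial DNA and starts its transcription, held 28.4, 27.7 and 30.3 TPM in TC and 39.3, 34.4 and 18.99 TPM in TM, with TM replicate 3 the lowest of all 6 samples (-0.04, SE 0.25), and the polymerase POLRMT differed by -0.35 (SE 0.20). The list of translation factors, which also holds LRPPRC and SLIRP, not themselves translation factors, had 16 genes and a median of -0.08. None of the 16 had an unadjusted p under 0.05 by limma. The smallest p was that of LRPPRC, which stabilises mitochondrial mRNAs, with 30.7, 23.4 and 24.8 TPM in TC and 35.5, 27.7 and 46.2 TPM in TM (-0.44, SE 0.21, limma adjusted p = 0.365). Its binding partner SLIRP held 240.4, 204 and 327 TPM in TC and 205, 204 and 200.3 TPM in TM (0.31, SE 0.17), on the other side of 0, and TUFM, the elongation factor that brings tRNA, differed by -0.15 (SE 0.18). The ribosomal RNAs overlapped between zones, MT-RNR1 at 1180.3, 680.4 and 791 TPM in TC and 759.9, 630.4 and 1554 TPM in TM and MT-RNR2 at 2376, 1617 and 1394 TPM in TC and 1749, 1469 and 1809 TPM in TM.

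Of the regulators of mitochondrial biogenesis, PPRC1, a coactivator of the PGC-1 family, held 24.7, 26.4 and 32.04 TPM in TC and 54.1, 53.02 and 41.3 TPM in TM (-0.81, SE 0.17, limma adjusted p = 0.0843). The transcription factor NRF1 held 6.91, 5.64 and 5.32 TPM in TC and 9.63, 9.37 and 9.16 TPM in TM (-0.58, SE 0.20, limma adjusted p = 0.197), and MYC 98.2, 108 and 109 TPM in TC and 199.9, 140.1 and 133 TPM in TM (-0.56, SE 0.17, limma adjusted p = 0.168). In these 3 genes every core sample was below every margin sample. YY1 differed by -0.06 (SE 0.16), SP1 by -0.27 (SE 0.23) and GABPA, the DNA-binding subunit of an ETS-family factor, by 0.25 (SE 0.28). The coactivators PPARGC1A and PPARGC1B were too low to be tested, at most 0.68 and 1.75 TPM in a sample.

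**Figure D4:**
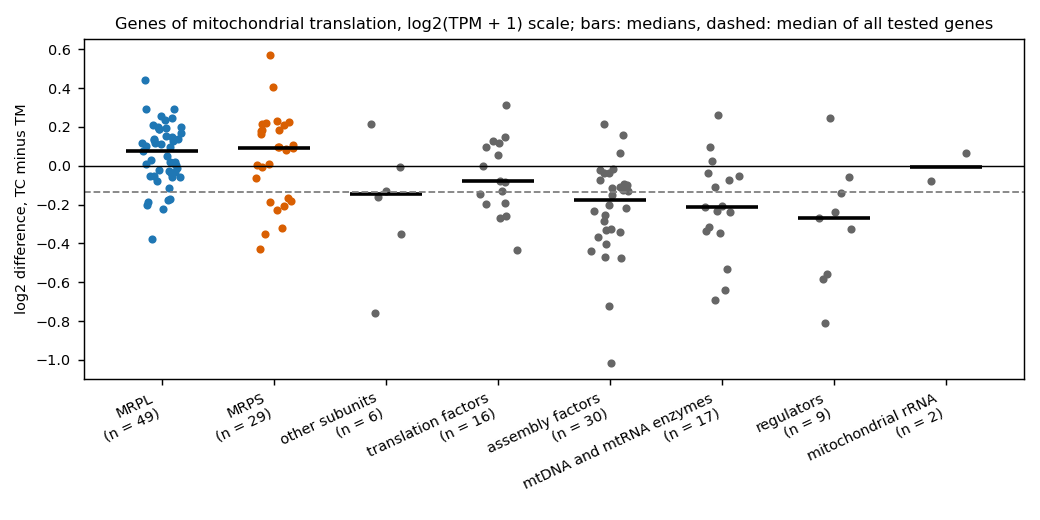
Each point is 1 gene's TC minus TM difference (y axis, log2(TPM + 1) scale), with a bar at each median and a dashed line at the median of all tested genes (-0.14). The members are at the left and 6 lists of other genes at the right, which include mitochondrial DNA and RNA enzymes and regulators. The MRPL and MRPS medians lie above 0 and those of the 6 lists below 0. That of the 2 mitochondrial ribosomal RNAs is at -0.0040, with 1 gene on each side of 0.

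NRF1, ETS-family factors, YY1 and SP1 are known to act at promoters of nuclear genes for mitochondrial proteins, so the members' promoters were read for the letters these factors bind. RefSeq (GRCh38.p14) gave a start for 69 of the 78 members, and the 250 bases before and 50 after it were searched on both strands for 5 motifs chosen with the results known. CCGGAAG, bound by ETS-family factors, was found in 42.0% of the members' promoters, against 20% of 9620 promoters of tested coding genes and 10.7% of all 27305 promoters. AANATGGCG, bound by YY1, was found in 26.1%, against 7.3% and 3.4%. The NRF1 motif was found in 11.6%, against 12.2% and 6.3%, GGGCGG (the GC box of SP1) in 60.9%, against 71.3% and 44.6%, and TATAAA in 2.9%, against 5.4% and 12%. Of the 39 ETS matches 28 lay within 50 bases of the start, and so did 17 of the 20 YY1 matches. The YY1 letters include ATGGCG, which can also be a start codon followed by an alanine codon, so the reading as a binding motif and the reading as coding sequence cannot be told apart here. The ETS and YY1 letters can share bases, but of the 4 members with both, 0 had overlapping matches. A match describes the sequence, not binding.

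The promoters of 4 members are shown with the ETS and YY1 letters in capitals, 5′ to 3′ on the gene's strand, where CTTCCGG is the ETS motif read from the other strand. MRPL54 (chr19:3762432-3762731, + strand) and MRPS2 (chr9:135500432-135500731, + strand) are the members furthest above and below 0 among those with a small p and a promoter entry, the first with ETS letters near the start and the second without either motif. MRPL38 (chr17:75904835-75905134, - strand) holds both, and MRPL46 (chr15:88467339-88467638, - strand) lies 34 bases from MRPS11, which runs the other way, by the edges of the GENCODE v29 genes (their RefSeq starts are 320 bases apart).
MRPL54: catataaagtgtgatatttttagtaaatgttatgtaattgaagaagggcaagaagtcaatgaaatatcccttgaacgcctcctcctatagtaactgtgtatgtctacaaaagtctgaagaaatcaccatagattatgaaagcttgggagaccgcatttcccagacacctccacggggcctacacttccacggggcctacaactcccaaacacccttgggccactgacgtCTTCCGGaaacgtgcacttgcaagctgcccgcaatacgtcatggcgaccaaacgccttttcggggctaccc
MRPS2: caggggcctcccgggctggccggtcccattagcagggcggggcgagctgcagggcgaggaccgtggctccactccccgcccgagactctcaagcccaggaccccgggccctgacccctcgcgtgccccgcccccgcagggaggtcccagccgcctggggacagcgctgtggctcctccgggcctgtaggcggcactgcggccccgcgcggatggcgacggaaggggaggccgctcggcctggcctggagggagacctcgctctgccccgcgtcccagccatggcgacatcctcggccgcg
MRPL38: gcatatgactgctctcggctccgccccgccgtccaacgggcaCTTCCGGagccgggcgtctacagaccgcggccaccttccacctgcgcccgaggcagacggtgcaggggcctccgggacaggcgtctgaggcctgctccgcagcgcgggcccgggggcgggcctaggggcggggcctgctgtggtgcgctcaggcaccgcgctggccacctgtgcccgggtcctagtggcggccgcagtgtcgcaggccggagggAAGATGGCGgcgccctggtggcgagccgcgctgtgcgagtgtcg
MRPL46: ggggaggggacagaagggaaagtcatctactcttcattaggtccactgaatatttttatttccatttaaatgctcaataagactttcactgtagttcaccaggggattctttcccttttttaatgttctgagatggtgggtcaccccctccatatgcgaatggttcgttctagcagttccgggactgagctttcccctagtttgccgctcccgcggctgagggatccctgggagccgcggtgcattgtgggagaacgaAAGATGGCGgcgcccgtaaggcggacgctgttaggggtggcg

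The 29 members with ETS letters had a median difference of 0.11 (22 above 0) and the 40 without 0.02 (22 above 0). The 18 with YY1 letters had a median of 0.15 (10 above 0) and the 51 without 0.08 (34 above 0), the 8 with NRF1 letters 0.06 (5 above 0), and the 42 with a GC box 0.08 (28 above 0). Of the promoters shown, those of MRPL38 and MRPL46 share the YY1 letters while the genes differed by -0.38 and 0.15 (SE 0.21). Head-to-head starts within 1000 bases, as in MRPL46 and MRPS11, were found in 17 of 78 members (21.8%) and in 1204 of 11900 tested coding genes (10.1%). MRPS11 held 46.1, 44.9 and 59.6 TPM in TC and 57.9, 49.9 and 41.99 TPM in TM, and MRPL46 31.2, 26.9 and 41.1 TPM and 30.8, 33.99 and 23.7 TPM. MRPL47 faces NDUFB5, a subunit of respiratory complex I, at 36 bases, and NDUFB5 held 87.4, 87.6 and 81.5 TPM in TC and 82.4, 68.9 and 66.2 TPM in TM (0.24, SE 0.13), on the same side of 0 as MRPL47. Of the 14 head-to-head pairs with both genes tested, 5 lay on the same side of 0 and 9 on opposite sides, as MRPL54 (0.44) and APBA3 (-0.47) did.

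Little of the TPM went to copies of the members. Of 80 pseudogene rows with an MRPL or MRPS name, 14 were above 0 in any sample and their summed TPM lay between 11.5 and 26.1, against at least 5180.4 TPM for the members. The leading one, MRPL45P2, held 18.7, 11.4 and 22.5 TPM in TC and 7.07, 13.6 and 6.51 TPM in TM (0.90, SE 0.33, limma adjusted p = 0.229). Its parent MRPL45 held 54.8, 49.9 and 45.3 TPM in TC and 50.2, 50.7 and 54.9 TPM in TM (-0.06, SE 0.13), and how reads were shared between near-identical copies is uncertain.

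Other features of the samples also differed between or inside the zones. Summed skeletal muscle markers (15 of 16 found, 12 at a mean of at least 1 TPM) lay between 8.73 and 12.4 TPM in TC. In TM they stood at 272, 687 and 6.23 TPM. Summed fibroblast markers (10 of 10 found, 7 at a mean of at least 1 TPM) lay between 79.8 and 245 TPM in TC. In TM they stood at 506, 1058 and 112 TPM, of which COL1A1 held 335, 698 and 62.9 TPM. The fibroblast marker DCN was at 0 in all samples but TM replicate 1, and LUM at 0 in TM replicates 1 and 2. Adipocyte markers stayed at or below 0.86 TPM, with ADIPOQ at 0 in all samples. Mitochondrially encoded RNA took a share of 7.07% ± 1.52 in the core and 10.3% ± 0.945 in the margin (SD, n = 3). The part of these in the members' differences was not tested beyond fits without those samples or genes. Without TM replicates 1 and 2, a setting chosen after seeing the data that leaves 1 margin sample, the members' median was 0.17 and that of all tested genes -0.06. With the mitochondrially encoded genes removed, the medians were 0.04 and -0.18. Markers of the line (VIM, CD44, KRT8 and 6 others) were all present, and the summed receptors ESR1, PGR and ERBB2 were at or below 41.0 TPM in every sample. Nearly all of that sum was ERBB2, with 22.3, 23.9 and 24.1 TPM in TC and 40.7, 30.8 and 36.4 TPM in TM. ESR1 and PGR reached at most 0.13 and 0.22 TPM.

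The distance between the members and all tested genes depended less on the scaling than the members' own values did. The members' median exceeded that of all tested genes in all 17 alternative settings, by 0.11 (without TC replicate 3) to 0.30 (without TC replicate 1). Changing the empirical Bayes step or adding the replicate block cannot move the differences, so those settings repeat the medians as reported. Under median-of-ratios rescaling 67 of 78 members lay above 0 and 13 had an unadjusted p under 0.05, all higher in TC, where 5.76% of all tested genes were, and 23 did not overlap (29.5% of the members and 19.8% of all tested genes). In each of the 17 settings 0 members were called by limma.

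**Figure D5:**
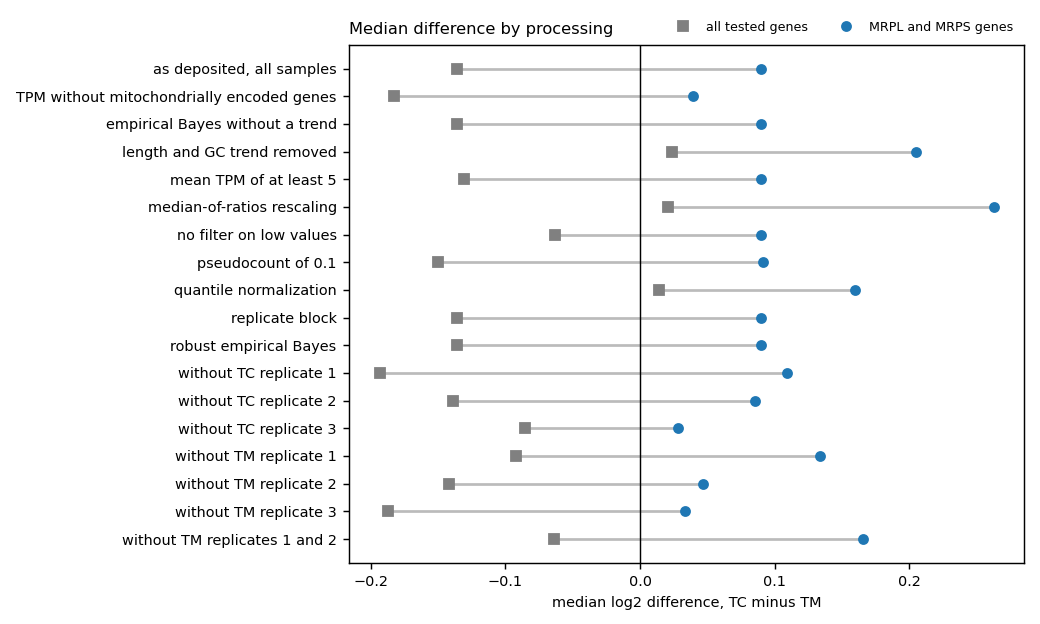
Median TC minus TM difference (x axis, log2 scale) of the 78 members (circles) and of all tested genes (squares) under each processing (y axis). The circle lies to the right of the square in every row, at 0.09 against -0.14 with the values as deposited. Rows that change only the empirical Bayes step or add the replicate block repeat these 2 values.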

How the data were processed

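RNA-seq values of 3 TC and 3 TM samples were analysed. Reads had been trimmed, aligned with HISAT2, assembled with StringTie and quantified with RSEM (the study's methods), and the submitters' processing notes name the build hg38. The authors deposited TPM per gene, so depth is unknown, no interval from counts could be given, and a count model could not be run. The sum of a column was 994381 TPM in TM replicate 3 and 1000000 in each other sample. The matrix held 60930 features, of which 259 were loci outside the annotation and were left out, and 96.3% of the annotated genes were found in GENCODE v29 (GRCh38), which gave positions, transcript length and GC content. Promoters came from RefSeq (GRCh38.p14). Its start lay within 50 bases of the 5′ edge of the GENCODE v29 gene in 31 of 69 members and over 250 bases from it in 21 (at most 338188, in MRPS22). Of the promoters shown the start lay inside the gene by 18 bases in MRPL54, 31 in MRPL46, 529 in MRPL38 and 698 in MRPS2.

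Sample titles gave the groups and replicate numbers. The 13861 genes that reached 1 TPM in 3 or more of the 6 samples were compared on log2(TPM + 1), TC minus TM, with limma 3.58.1 (R 4.3.3, empirical Bayes with a mean-variance trend, two-sided, Benjamini-Hochberg over all tested genes, threshold 0.05). The log2(TPM + 1) scale understates changes of low genes. The fit was tested on simulated data. The members and gene lists were chosen with earlier results of these data known, and so were the motifs, the GC split and the promoters shown. Genes named: the 6 MRPL and 6 MRPS genes with the smallest p, the 3 most and 3 least abundant of each, the S18 paralogs, MRPS30, MRPS36 and the stalk genes, and of each other list the 2 genes with the smallest p and 11 genes of known roles. MRPS27, MRPL32, MRPL45, MRPL46, MRPL51, MRPS11, NDUFB5 and other pathway genes were named after their values were seen. Alternatives changed the pseudocount, filter, scaling, model and samples. The removal of the length and GC trend also centred each sample on the genes' mean values.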

Additional observations from a re-analysis of the deposited data

How the results depend on the processing

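No member was called under any of the 17 settings. The members' median stayed above that of all tested genes in every setting that changes the differences. Depth is unknown, and with 3 samples per zone an exact permutation test of 1 value cannot go below p = 0.1. The number of genes called among all tested, 19 as reported, was 12 without a trend in the empirical Bayes step, 4 with the length and GC trend removed, 6 under median-of-ratios rescaling, 1 without a filter, 7 with a pseudocount of 0.1, 4 under quantile normalization, 47 under robust empirical Bayes and 195 without TM replicates 1 and 2, and it ran from 1 to 17 when 1 sample was left out. It was 1 (without TC replicate 3 or without TM replicate 1), 4 (without TC replicate 1) and 9 (without TM replicate 2).

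Members with an unadjusted p under 0.05 and higher in TC, 3 as reported, were 14 with the length and GC trend removed, 13 under median-of-ratios rescaling and 12 under quantile normalization, where the share of all tested genes also went up, from 1.93% to 6.54%, 5.76% and 5.32%, and ran from 0 (without TC replicate 3) to 3 when 1 sample was left out, with 1 without TC replicate 1 or TM replicate 2. Those lower in TC, 1 as reported, were 2 without mitochondrially encoded genes, 0 without a trend, with a mean TPM of at least 5, without a filter and under the 3 rescalings (length and GC, median-of-ratios, quantile), and ran from 0 to 4 when 1 sample was left out (3 without TC replicate 3, 4 without TM replicate 3, 0 without any other), beside 6.83% to 16.9% of all tested genes under these settings. Members without overlap, 6 as reported, were 21 with the length and GC trend removed, 23 under median-of-ratios rescaling, 21 under quantile normalization and 48 without TM replicates 1 and 2 (20.04%, 19.8%, 20.2% and 60.99% of all tested genes; 48 is 61.5% of the members), and ran from 9 to 20 when 1 sample was left out (16, 14 and 13 without TC replicates 1 to 3, 18, 9 and 20 without TM replicates 1 to 3), beside 28.7% to 37.1% of all tested genes. The 3 rescalings moved the median of all tested genes from -0.14 to 0.02, 0.02 and 0.01. Leaving samples out leaves fewer values in a zone that could overlap. The part of each in these shifts was not tested. The members' median was 0.20 with the length and GC trend removed and 0.26 under median-of-ratios rescaling (0.20 and 0.25 for MRPL, 0.21 and 0.26 for MRPS genes), and the MRPS median was 0.24 without TM replicates 1 and 2. Left-one-out values ran from 0.03 to 0.13 for the members' median and from 0.11 to 0.30 for its distance from all tested genes. The fit without TM replicates 1 and 2 leaves 1 margin sample, which is assumed to vary like the core samples, so its 195 calls set the core against 1 library. In it, 1 gene of the other lists was called by limma (SPG7, -1.47, adjusted p = 0.0182, with 84.9 TPM in that sample).

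Same-numbered core and margin samples deviated from their zone means with correlations of 0.21, -0.12 and -0.16, and differently numbered ones with -0.23 to 0.32. With 3 samples per zone these values cannot decide whether same-numbered samples came from one mouse. With the replicate block, 1 gene was called among all tested, and 1 member was higher and 0 lower in TC at an unadjusted p under 0.05.

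Some named genes changed sign, mainly those with small differences. POLRMT, at -0.35 as reported, did so only without TM replicates 1 and 2. With the length and GC trend removed, MRPL10 was at 0.080, MRPL12 at 0.11, MRPS18B at 0.21, MRPS34 at 0.064, MT-RNR1 at 0.0009, TUFM at 0.10 and YY1 at 0.0048. Under median-of-ratios rescaling, MRPL12 was at 0.063, MRPS18B at 0.17, MRPS30 at 0.11, MRPS34 at 0.013, MT-RNR1 at 0.10, TFAM at 0.14, TUFM at 0.033 and YY1 at 0.12. Under quantile normalization, MRPS18B was at 0.093, MRPS30 at 0.12, MT-RNR2 at -0.082, TFAM at 0.13 and YY1 at 0.12. Without TM replicates 1 and 2, MRPL12 was at 0.37, MRPL53 at -0.16, MRPS18B at 0.021, MRPS34 at 0.14, MT-RNR2 at -0.048, POLRMT at 0.083, TFAM at 0.58, TUFM at 0.17 and YY1 at 0.17. When 1 sample was left out, values ran from -0.36 to 0.021 for MRPL12, -0.070 to 0.35 for MRPL33, -0.0094 to 0.24 for MRPL41, -0.034 to 0.043 for MRPS18B, -0.013 to 0.17 for MRPS21, -0.17 to 0.011 for MRPS30, -0.34 to 0.31 for MT-RNR1, -0.15 to 0.23 for MT-RNR2, -0.34 to 0.16 for TFAM and -0.17 to 0.0026 for YY1.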
